A study of Mus musculus with 44 samples.

Results

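The comparison described here set vehicle-treated liver against vehicle-treated brain of the same mice, at the level of every gene that was measured. It used 14 of the 44 libraries of a study of manganese exposure: 7 liver and 7 brain libraries from 7 C57BL/6J mice of about 2 months, 4 male (animals 2573, 2574, 2627 and 2630) and 3 female (animals 2572, 2628 and 2629). Each animal gave 1 liver and 1 brain library, and the animal number at the start of each title paired them. The labels give the strain with no added allele, and every mouse had received vehicle, the solution without manganese, so that the libraries give the baseline of the 2 organs. The labels name the material as total homogenate, which mixes every cell type of the organ, and they do not say which part of the brain was taken. The assay was 3′ TagSeq, in which each read falls near the end of an mRNA, and a long transcript does not gather more reads than a short one.

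The liver makes most of the proteins of blood plasma, stores and releases glucose, turns ammonia into urea and makes bile acids. It also breaks down drugs and amino acids and handles metals taken up from the gut. Most of its RNA comes from hepatocytes, with Kupffer cells (the resident macrophages), sinusoidal endothelium, stellate cells and bile duct cells beside them. The brain consists of neurons, which signal through ion channels and synapses, and of glia: astrocytes, myelin-forming oligodendrocytes and microglia. In bulk tissue, fewer cells of a type and less RNA per cell cannot be told apart, so that each difference given here is one of the organ's RNA as a whole.

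Libraries held 1851623 to 2667301 reads assigned to genes in liver and 1907393 to 2787449 in brain. Intervals given for low counts cover counting error only, since reads of 1 PCR product are not independent molecules. Reads that mapped to several places, which were not counted, made up 29.1% to 34.8% of the records in liver and 25.6% to 27.0% in brain, which leaves families of near-identical genes uncertain (among those named, the Mup, Serpina1, Cyp2c, Cyp2d, Cyp2a and globin genes). The file names put the liver and the brain libraries in separate runs of sample numbers, so that a batch that follows them and the tissue cannot be told apart. Levels are in CPM, the read count scaled to a common library total after TMM (a trimmed mean of the differences between libraries), and log2 values are liver over brain, each ± its standard error.

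Some libraries stood apart. Over 21 neuron and oligodendrocyte markers, the median level in liver was 2.36% of that in the same animal's brain for animal 2627 and 2.99% for animal 2630, but 0.552% to 0.779% for the other 5 animals. In the other direction, 25 plasma protein genes stood in brain at 0.0157% to 0.149% of their liver level. Lists of brain genes are therefore given with and without animals 2627 and 2630, as are single brain genes whose fitted difference moved by over 1.5 times without them. Some are also given after the reads predicted from these shares were subtracted (both chosen after seeing the data). The markers that set a share, Snap25 and Syt1 among them, are lowered by that subtraction by construction. The liver library of animal 2630 was also highest in small intestine epithelium markers: Vil1, a brush border protein, was at 115 CPM there and at most 21.7 CPM in the other livers. The brain library of animal 2572 was far above the others in pituitary hormone genes.

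Of 55416 genes listed, 12943 had enough reads to be tested. In the paired test (edgeR quasi-likelihood, Benjamini-Hochberg adjusted p below 0.05), 10742 of them (83.0%) differed between the organs: 5144 (39.7%) were higher in liver and 5598 (43.3%) lower. A difference beyond 2-fold was called for 6463 genes (49.9%), of which 2852 (22.0% of those tested) were higher in liver and 3611 (27.9%) lower. Livers and brains did not overlap for 4059 genes with every liver above every brain (31.4%) and for 4678 with every brain above every liver (36.1%). Most genes thus differed, and a gene list is to be read against these shares. The split rests on the scaling: with library totals alone, 3179 genes were higher and 8041 lower, the median gene standing at -0.80, against -0.07 with TMM.

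**Figure D1:**
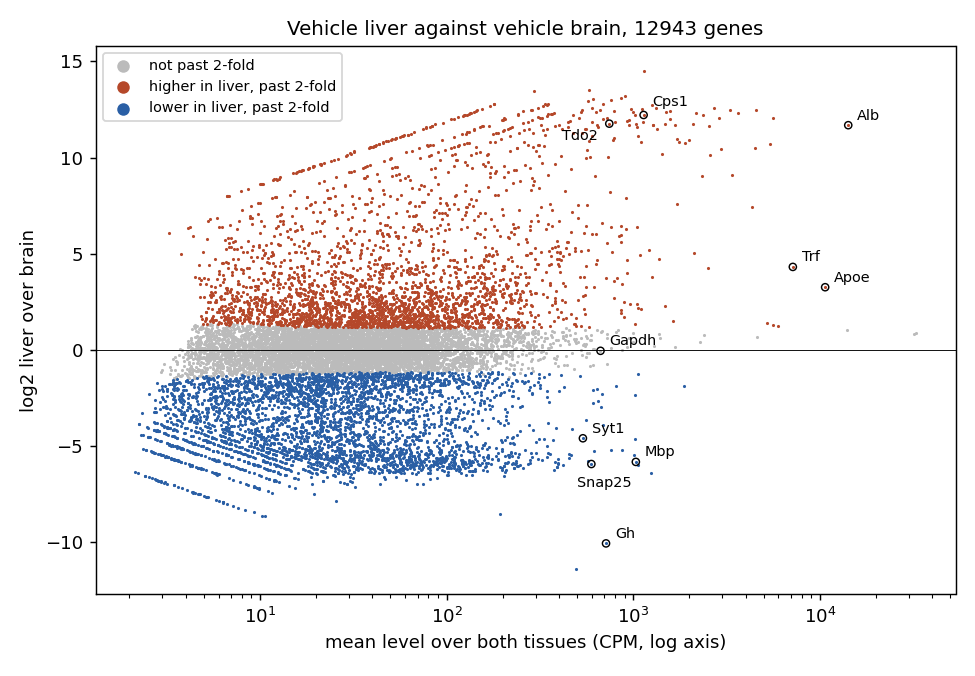
Level and difference of the 12943 tested genes. The x axis gives the mean CPM over both organs on a log axis and the y axis the log2 level of liver over brain; each point is 1 gene, and colours mark genes past 2-fold in either direction. Genes far above 0, such as Alb and Cps1, reach log2 12, while most brain genes stop near -6, and the rows of points at the edges are genes with 0 to 3 reads in 1 organ.

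The liver libraries put more of their reads into few genes. The 100 most abundant genes took 36.5% ± 1.09 of liver reads and 20.3% ± 0.795 of brain reads (SD, n = 7 each), higher in 7 of 7 animals (exact sign-flip permutation test, two-sided p = 0.0156, the smallest that 7 pairs allow). At an equal depth of 1851623 reads, 16228 ± 369.7 genes were expected to be seen in liver and 18306 ± 98.7 in brain, lower in 7 of 7 animals (same exact test, p = 0.0156). With the predicted brain reads subtracted, the liver number was 15654 ± 191, against 18208 ± 95.6 in brain.

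The organs held the markers of their labels. All 10 hepatocyte markers were past 2-fold higher in liver (median log2 11.89), and their summed level was 58778 to 73959 CPM in livers against 36.6 to 442 CPM in brains, of which Ttr made up most in the highest brain. Of 10 neuron markers, 9 were tested and all 9 were past 2-fold lower in liver (sum 69.8 to 240.5 CPM in livers against 4441 to 4701 CPM in brains). Neurod6, a transcription factor of excitatory neurons of the cerebral cortex, averaged 3.19 ± 1.35 CPM in brains (SD, n = 7), below the filter. In the same brains Th, the rate-limiting enzyme of dopamine synthesis, averaged 44.4 ± 11.2 CPM, the dopamine transporter Slc6a3 31.3 ± 12.1 CPM, and Pmch, a peptide of the lateral hypothalamus, 241 ± 38.2 CPM. Neurod6, Slc6a3 and Pmch were named after their values were seen.

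Plasma protein genes were expressed far above brain in liver. All 25 tested members of 26 listed were past 2-fold higher in liver (median log2 11.87, or 12.51 without animal 2628, against -0.07 over all genes tested), and together they reached 100774 to 136441 CPM in livers against 752 to 1005 CPM in brains. Albumin (Alb), the main protein of plasma, stood at 22658 to 37049 CPM in livers (median 25908) and at 3.13 to 54.3 CPM in brains (median 6.29), with every liver above every brain (log2 11.68 ± 0.48, adjusted p = 2.51e-11). The highest brain value, 54.3 CPM, was that of animal 2628, the brain library with the largest share of liver reads. The protein carrier and calcification inhibitor fetuin-A (Ahsg) had 9895 to 12623 CPM in livers (median 11072) against 1.26 to 8.59 CPM in brains (median 1.71). Fgb, a chain of fibrinogen, ranged from 4198 to 9451 CPM in livers (median 5898) against 0.293 to 3.91 CPM in brains (median 0.569), and C3, the central complement component, from 4389 to 7417 CPM in livers (median 6336) against 2.83 to 6.64 CPM in brains (median 3.96). Transferrin (Trf), which carries iron in plasma, was also a brain product, made there by oligodendrocytes and choroid plexus: 12094 to 15591 CPM in livers (median 13451) against 617 to 773 CPM in brains (median 702), a difference of log2 4.31 ± 0.13, adjusted p = 1.26e-12.

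Other plasma protein genes varied with the animal. Transthyretin (Ttr), a carrier of thyroid hormone and retinol made by hepatocytes and by the choroid plexus, had 7768 to 9666 CPM in livers (median 8545) and 18.3 to 428 CPM in brains (median 30.5), a difference of log2 7.45 ± 0.55. The brain of animal 2629 was the highest, and the nearest other brain had 102 CPM. Serpina1e, one of the alpha-1-antitrypsin copies, ranged in livers from 690.3 to 13056 CPM, and Mup3, a major urinary protein, from 4333 to 12824 CPM, against at most 5.66 and 4.997 CPM in brains.

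Genes of lipoproteins, the particles that carry fat and cholesterol in blood, were higher in liver for 14 of 15 tested members of 16, and Apod was lower (median 8.07). Apoa1, the main protein of high-density lipoprotein, had 7904 to 10923 CPM in livers (median 8628) and 3.13 to 12.5 CPM in brains (median 5.33), and Apoa2 and Apoc1 differed by log2 10.700 and 9.103. Apoe, the lipid carrier that astrocytes also make, was abundant in both organs: 17897 to 21098 CPM in livers (median 19174) against 1912 to 2147 CPM in brains (median 2019), a difference of log2 3.26 ± 0.12, adjusted p = 8.95e-12. Apod, a lipocalin of glia, went the other way, at 1.702 to 10.2 CPM in livers (median 3.95) against 222 to 307 CPM in brains (median 264), a difference of log2 -5.899 ± 0.23; -6.51 without animals 2627 and 2630.

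Nitrogen metabolism separated the organs. Of 11 genes of the urea cycle and ammonia handling, 10 were past 2-fold higher in liver (median 5.28). Cps1, which fixes ammonia at the entry of the cycle, had 1843 to 2638 CPM in livers (median 2243) and 0 to 1.56 CPM in brains (median 0.315), a difference of log2 12.21 ± 0.28. Arg1, the arginase that releases urea, had 1178 to 1496 CPM in livers (median 1434) and 0 to 0.781 CPM in brains (median 0.330), a difference of log2 12.002 ± 0.24. Earlier in the cycle, Ass1 was at 1024 to 1356 CPM in livers (median 1141) and still at 15.1 to 21.1 CPM in brains (median 17.3), a difference of log2 6.04 ± 0.12, and the glutamate dehydrogenase gene Glud1 differed by log2 2.48 ± 0.10. Glul, glutamine synthetase, which takes up ammonia in pericentral hepatocytes and glutamate in astrocytes, was the member that did not pass 2-fold: 978 to 1402 CPM in livers (median 1136) against 806 to 901 CPM in brains (median 858), a difference of log2 0.40 ± 0.10, adjusted p = 0.00202. Its sign turned with library totals alone (-0.33).

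All 21 genes of amino acid breakdown were past 2-fold higher in liver (median 10.17). Gnmt, which removes excess methyl groups by methylating glycine, had 2436 to 3419 CPM in livers (median 2828) against 1.17 to 6.25 CPM in brains (median 1.999), a difference of log2 10.17 ± 0.25. Hpd, of tyrosine breakdown, had 2049 to 3246 CPM in livers (median 2562) against 0 to 3.52 CPM in brains (median 0.315), a difference of log2 11.71 ± 0.36, a value that was 12.71 without animal 2628. Bhmt, which remethylates homocysteine with betaine, gave 21611 reads over the 7 livers and 3 over the 7 brains (ratio 12343, counting interval 4223 to 59858, 95%).

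The kynurenine pathway breaks down tryptophan and leads to NAD, and the study asked about it in manganese exposure. Its first step is made by Tdo2, mainly in liver, and by Ido1 and Ido2; Kmo, Kynu and Haao then lead to quinolinic acid, an agonist of NMDA receptors, while the aminotransferases Kyat1, Kyat3, Aadat and Got2 make kynurenic acid, which blocks these receptors. Of 15 genes listed, 14 were tested and all 14 were past 2-fold higher in liver (median 6.79; 6.73 without animals 2627 and 2630). Ido1 did not pass the filter in either organ. Tdo2 had 1066 to 2088 CPM in livers (median 1392) and 0 to 0.999 CPM in brains (median 0.315), with no overlap (log2 11.76 ± 0.21, adjusted p = 4.38e-14). Ido2 had 109 to 169 CPM in livers (median 144) and 0.408 to 2.27 CPM in brains (median 1.57), a difference of log2 6.55 ± 0.16.

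On the branch to quinolinic acid, Kmo, the hydroxylase of kynurenine, had 232 to 372 CPM in livers (median 252) and 0.333 to 2.56 CPM in brains (median 1.17), a difference of log2 7.78 ± 0.22. Haao, which makes the precursor of quinolinic acid, had 559.8 to 702 CPM in livers (median 652) and 0 to 1.32 CPM in brains (median 0.816), a difference of log2 9.72 ± 0.21. Kynu gave 2644 reads over the livers and 3 over the brains (ratio 1510.1, counting interval 516 to 7327). Qprt, which uses up quinolinic acid towards NAD, had 205 to 290.0 CPM in livers (median 258) and 0.666 to 2.97 CPM in brains (median 2.05), a difference of log2 7.03 ± 0.21. The mRNAs for the step that leads to the acid and for the step that removes it were thus both low in brain. Acmsd, which diverts its precursor, gave 431 reads over the livers and 2 over the brains (ratio 369, counting interval 102 to 3059); it ranged from 20.97 to 77.8 CPM in livers, highest in animal 2573. Afmid, the formamidase of the second step, was low in both organs, with 102 reads over the livers and 1 over the brains (ratio 175, counting interval 30.7 to 6970.0).

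The remaining enzymes of the list ranged widely in size. Got2, the mitochondrial aspartate aminotransferase, had 205 to 277 CPM in livers (median 244) and 83.1 to 96.5 CPM in brains (median 87.1), a difference of log2 1.45 ± 0.09. Kyat1 had 204 to 317 CPM in livers (median 255) and 16.3 to 21.1 CPM in brains (median 17.6), a difference of log2 3.81 ± 0.12, and Gcdh, which oxidises glutaryl-CoA, 563 to 701 CPM in livers (median 621) and 14.2 to 24.1 CPM in brains (median 16.7), a difference of log2 5.11 ± 0.13. Kyat3 differed by log2 6.27 ± 0.18 and Aadat by log2 8.503 ± 0.22. Aadat ranged from 75.6 to 323 CPM among livers, with 133 to 323 CPM in males and 75.6 to 84.8 CPM in females. Nadsyn1, the last step to NAD, had 14.7 to 28.4 CPM in livers (median 17.6) and 1.63 to 4.98 CPM in brains (median 3.41), a difference of log2 2.42 ± 0.22.

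**Figure D2:**
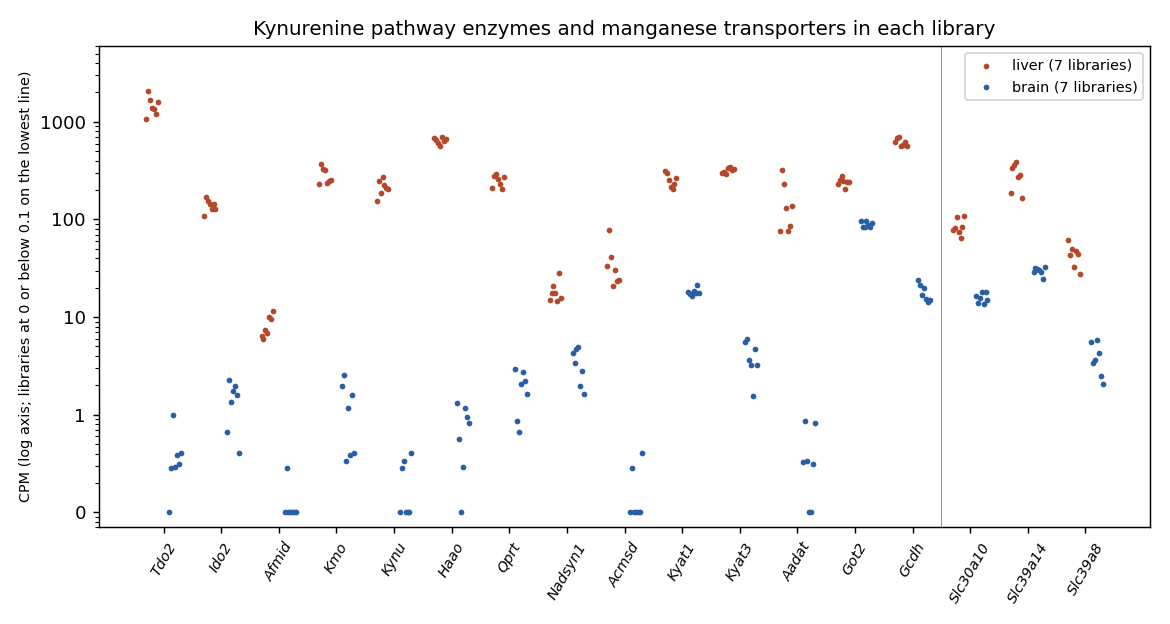
Levels of 14 kynurenine pathway genes and 3 manganese transporters in each library. The y axis is CPM on a log axis, with libraries at 0 or below 0.1 CPM on the lowest line; each point is 1 library, livers left of brains for each gene. No liver point lies below a brain point of the same gene, and Got2, Kyat1 and Gcdh are the pathway genes with every brain above 10 CPM.

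Manganese, iron and zinc handling was mixed: 12 of 22 tested members of 23 were past 2-fold higher in liver and 3 lower (median 2.81). The 3 transporters that set manganese levels were among the higher ones. Slc39a14, which takes manganese into hepatocytes, had 167 to 385 CPM in livers (median 289) and 24.5 to 32.2 CPM in brains (median 30.2), a difference of log2 3.22 ± 0.16. Slc30a10, which exports it, had 64.6 to 107 CPM in livers (median 82.4) and 13.7 to 18.2 CPM in brains (median 15.7), a difference of log2 2.404 ± 0.12. Slc39a8, which takes it back from bile, had 27.9 to 62.2 CPM in livers (median 43.9) and 2.04 to 5.86 CPM in brains (median 3.66), a difference of log2 3.46 ± 0.18. No liver overlapped a brain for any of them.

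Among iron genes, Hamp, the hormone hepcidin, had 538 to 1739 CPM in livers (median 1024) and 0 to 1.56 CPM in brains (median 0.284), a difference of log2 11.47 ± 0.27; 12.18 without animal 2628, and the ferritin light chain Ftl1 and the ferroxidase Cp differed by log2 3.803 ± 0.11 and log2 6.41 ± 0.14. The lower members were brain genes: Mt3, the neural metallothionein, had 3.33 to 40.1 CPM in livers (median 6.24) and 405 to 536 CPM in brains (median 473), a difference of log2 -5.43 ± 0.35; -6.46 without animals 2627 and 2630, Atp13a2, a lysosomal polyamine transporter, differed by log2 -2.06 ± 0.14, and Slc30a3, the zinc transporter of synaptic vesicles, by log2 -2.399 ± 0.28. Mt1, the inducible metallothionein, varied widely: 84.2 to 2026 CPM in livers (median 519.7) against 696 to 894 CPM in brains (median 760.2), a difference of log2 -0.75 ± 0.36, adjusted p = 0.0644, not called, with animal 2627 highest among the livers.

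Antioxidant enzymes were past 2-fold higher in liver for 12 of 17 members and lower for Gpx3 (median 1.98). Catalase (Cat) had 1477 to 1975 CPM in livers (median 1744) and 22.97 to 30.3 CPM in brains (median 28.1), a difference of log2 5.95 ± 0.12, and Gpx1, which reduces peroxides with glutathione, 2224 to 3249.9 CPM in livers (median 2448) and 83.7 to 115 CPM in brains (median 106), a difference of log2 4.73 ± 0.13. Sod1 and Prdx1 differed by log2 2.17 ± 0.10 and log2 3.25 ± 0.11. The secreted form Gpx3 had 6.799 to 21.1 CPM in livers (median 12.5) and 27.7 to 102 CPM in brains (median 41.98), a difference of log2 -1.91 ± 0.23, with the brain of animal 2572 highest.

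Genes of sugar and fat metabolism were mostly higher in liver. All 15 genes of gluconeogenesis and sugar handling were past 2-fold higher in liver (median 6.91): Pck1, which commits oxaloacetate to glucose, had 630.4 to 2733 CPM in livers (median 2294) and 0 to 0.666 CPM in brains (median 0.408), a difference of log2 12.23 ± 0.27, and Fbp1 and Sord differed by log2 11.02 ± 0.27 and log2 5.93 ± 0.13. Of 20 genes of fatty acid oxidation and ketone bodies, 19 were past 2-fold higher (median 3.97). Oxct1, which lets organs other than the liver burn ketone bodies, was the 1 lower member: 13.8 to 33.3 CPM in livers (median 16.96) and 173 to 186 CPM in brains (median 179), a difference of log2 -3.24 ± 0.15. The thiolase genes Acaa2 and Acaa1b differed by log2 5.54 and 10.01.

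Cholesterol synthesis was higher in liver by a smaller margin, with 19 of 20 tested members of 21 past 2-fold and a median of 2.39. Hmgcs1, the cytosolic HMG-CoA synthase, had 357 to 1146 CPM in livers (median 688) and 118 to 129 CPM in brains (median 124), a difference of log2 2.51 ± 0.17, and the sterol enzymes Ebp and Sc5d differed by log2 4.49 ± 0.12 and log2 3.76 ± 0.13. Srebf2, the transcription factor of the pathway, was lower in liver but not past 2-fold: 63.2 to 128.3 CPM in livers (median 97.7) and 121 to 148 CPM in brains (median 136), ranges that overlap (log2 -0.52 ± 0.12, adjusted p = 8.66e-04). It and Glul were named after their values were seen.

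Bile acid and drug genes were among the most one-sided. All 16 tested members of 17 in bile acid synthesis and transport were past 2-fold higher in liver (median 10.35; 9.89 with the gene at 0 in brain set to its lower bound), and all 23 tested of 25 in drug metabolism (median 11.17; 10.49 with 2 genes at their bound). Slco1b2, which takes organic anions into hepatocytes, had 1822 to 2347 CPM in livers (median 2059) and 0.293 to 1.17 CPM in brains (median 0.569), a difference of log2 11.61 ± 0.20. Slc10a1, the bile acid uptake carrier, gave 8232 reads over the livers and 1 over the brains (ratio 14105, counting interval 2531 to 557196), and the export pump Abcb11 and the acyl-CoA ligase Slc27a5 differed by log2 9.096 ± 0.19 and log2 10.88 ± 0.24. Cyp2e1, which oxidises ethanol and small solvents, had 1935 to 2683 CPM in livers (median 2129.7) and 0 to 1.17 CPM in brains (median 0), a difference of log2 12.504 ± 0.31. Cyp3a11 was far more variable among livers, 508 to 3595 CPM in livers (median 2046) against 0 to 1.95 CPM in brains (median 0.315), and the carboxylesterase Ces1c and Cyp2c29 differed by log2 11.69 ± 0.27 and log2 11.92 ± 0.27.

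Transcription factors known to set hepatocyte identity were past 2-fold higher in liver for all 18 tested of 20 (median 4.72). Hnf4a, a nuclear receptor, had 479 to 646 CPM in livers (median 543) and 1 read over the 7 brains (ratio 12042, counting interval 2161 to 475711). Cebpa had 394 to 511 CPM in livers (median 426) and 4.08 to 8.21 CPM in brains (median 5.403), a difference of log2 6.12 ± 0.15, Cebpb 202 to 816 CPM in livers (median 372) and 13.5 to 27.4 CPM in brains (median 15.6), a difference of log2 4.597 ± 0.21, and Creb3l3 differed by log2 9.24 ± 0.23. Neuronal transcription factors were mostly low: of 20 listed 11 were tested, 8 were past 2-fold lower in liver and Rest was higher (median -3.01; -3.11 without animals 2627 and 2630). Myt1l, which represses non-neuronal genes, had 0.951 to 10.2 CPM in livers (median 2.49) and 241 to 309 CPM in brains (median 261), a difference of log2 -5.99 ± 0.27; -6.88 without them. Zic1 differed by log2 -5.67 ± 0.29 (-6.76 without them), Mef2c by log2 -2.72 ± 0.20 and Bcl11a by log2 -3.01 ± 0.18. Rest, which silences neuronal genes outside neurons through the RE1 element, had 36.00 to 50.01 CPM in livers (median 40.2) and 6.92 to 16.4 CPM in brains (median 10.5), a difference of log2 2.03 ± 0.17, adjusted p = 4.87e-08, without overlap.

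Letters of known elements were counted in the 250 bases before the RefSeq start of each gene, on both strands (RefSeq, build GRCm38.p6, whereas the counts rest on GRCm39). A promoter was matched for 534 of 725 genes higher in liver and 843 of 1148 lower in liver, both past 2-fold with a log2 difference over 5 in size, and for 10080 of the 12943 genes tested. The HNF4 letters CAAAGTCCA stood in 15 of 534 (2.81%) of the first, 2 of 843 (0.237%) of the second and 37 of 10080 (0.367%) of all tested. The RE1 core, searched as AGCACC followed after 2 free bases by GGACAG, stood in 0 of 534, 6 of 843 (0.712%) and 9 of 10080 (0.0893%). The C/EBP letters TTGCNNAA were in 18.4%, 7.24% and 7.48%, and a TATAAA in 17.98%, 7.59% and 6.55%. Few CpGs marked the liver-high set: the median was 3 in 250 bases, against 12 in the liver-low set and 16 over all tested. Of all 27025 promoters in the table, 0.381% hold the HNF4 letters, 0.0444% the RE1 core, 9.55% the C/EBP letters and 12.97% a TATAAA. Their median CpG number is 6, nearer to the liver-high set than that over all tested. A match is a run of letters and not a measured binding site. The sets were chosen after the values were seen, and their shares were not tested.

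The 6 windows below were chosen after the values were seen, to show the elements where they occur in genes of known role, with the element in capitals. The first 3 are from genes higher in liver: Cyp8b1, the sterol 12-alpha-hydroxylase of bile acid synthesis (403 CPM in livers and 0.0476 CPM in brains on average), Cyp2c70, which hydroxylates bile acids in mice (1280.4 and 0.355 CPM), and Agxt2, a mitochondrial aminotransferase (179 and 0.0882 CPM). In them the HNF4 letters begin 67, 64 and 21 bases before the start.
Cyp8b1, chr9:121916306-121916415, minus strand: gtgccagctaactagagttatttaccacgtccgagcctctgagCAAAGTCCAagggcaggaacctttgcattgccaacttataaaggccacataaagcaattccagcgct
Cyp2c70, chr19:40187337-40187436, minus strand: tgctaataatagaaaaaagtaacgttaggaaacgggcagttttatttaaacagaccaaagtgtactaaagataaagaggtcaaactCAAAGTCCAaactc
Agxt2, chr15:10358423-10358531, plus strand: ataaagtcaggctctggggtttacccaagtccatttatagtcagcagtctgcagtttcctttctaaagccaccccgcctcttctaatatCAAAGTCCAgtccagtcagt
The next 3 are from genes lower in liver: Gria2, the AMPA receptor subunit that limits calcium entry (4.85 CPM in livers and 257 CPM in brains), Gad2, which makes GABA (3.56 and 262 CPM), and Ogdhl, a brain form of oxoglutarate dehydrogenase (0.700 and 47.5 CPM). The RE1 core begins 170, 163 and 102 bases before the start, in Gria2 on the opposite strand.
Gria2, chr3:80802956-80803045, minus strand: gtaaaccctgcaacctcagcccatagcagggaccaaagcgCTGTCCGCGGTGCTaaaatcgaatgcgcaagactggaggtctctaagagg
Gad2, chr2:22622112-22622201, plus strand: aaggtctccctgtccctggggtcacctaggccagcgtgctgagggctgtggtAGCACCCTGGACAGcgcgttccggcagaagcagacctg
Ogdhl, chr14:32321879-32321978, plus strand: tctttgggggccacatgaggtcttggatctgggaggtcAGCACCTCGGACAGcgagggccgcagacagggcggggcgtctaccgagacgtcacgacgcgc

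Neuronal genes were far lower in liver. In 55 of 85 tested genes of the 4 lists that follow, the 2 livers with the largest brain share, 2627 and 2630, were the 2 highest (18 of 21 receptor genes, but 5 of 16 postsynaptic genes); whether the reads came from cells of the liver was not tested. All 21 glutamate and GABA receptor genes were past 2-fold lower (median -5.77), all 21 voltage-gated channels (median -5.31), 26 of 27 tested members of 28 of synaptic vesicles and release (median -5.27) and 14 of 16 postsynaptic genes (median -4.15). Without animals 2627 and 2630 the 4 medians were -6.81, -5.67, -5.89 and -4.21, and with predicted brain reads subtracted -8.402, -6.91, -7.02 and -4.59. Both steps take brain-like reads out of the livers, which lowers such medians, so that they do not test the direction.

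Snap25, the membrane SNARE of neurotransmitter release, had 6.48 to 56.4 CPM in livers (median 13.4) and 1103 to 1297 CPM in brains (median 1153). Its liver level was 45.3 CPM in animal 2627 and 56.4 CPM in animal 2630, against 6.48 to 15.8 CPM in the other 5 livers. The difference was log2 -5.94 ± 0.33 (adjusted p = 5.16e-10), and -6.68 without those animals. Syt1, the calcium sensor of release, had 27.02 to 82.2 CPM in livers (median 36.6) against 948 to 1172 CPM in brains (median 1034), a difference of log2 -4.597 ± 0.21; -4.96 without them, and Vamp2 had 37.6 to 59.1 CPM in livers (median 40.7) against 683 to 786 CPM in brains (median 728), a difference of log2 -4.05 ± 0.11. Syt11 differed by log2 -5.41 ± 0.26. The 1 member higher in liver was Snap23, the widely expressed relative of Snap25: 56.4 to 76.4 CPM in livers (median 61.8) and 10.99 to 19.6 CPM in brains (median 15.6), a difference of log2 2.03 ± 0.12.

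Among postsynaptic genes the kinase inhibitor Camk2n1 and the calcineurin subunit Ppp3ca kept more of their level in liver, at 196 to 315 CPM in livers (median 255) against 958 to 1070.0 CPM in brains (median 1029), a difference of log2 -2.01 ± 0.11 and 123 to 168 CPM in livers (median 159) against 608 to 680.0 CPM in brains (median 653), a difference of log2 -2.15 ± 0.10. Subtraction moved these to -2.18 and -2.32. The kinase Camk2b and the scaffold Dlgap1 differed by log2 -4.55 ± 0.24 and log2 -3.79 ± 0.28. Of the receptors, the AMPA subunit Gria1 had 1.702 to 14.3 CPM in livers (median 2.99) and 301 to 387 CPM in brains (median 344), a difference of log2 -5.92 ± 0.30; -6.902 without animals 2627 and 2630, and the NMDA subunit Grin2b 1.74 to 8.83 CPM in livers (median 3.99) and 244 to 419 CPM in brains (median 286), a difference of log2 -5.999 ± 0.22; -6.59. The GABA receptor genes Gabbr1 and Gabrb1 differed by log2 -5.52 ± 0.24 and log2 -6.08 ± 0.28 (-6.09 and -7.000 without them).

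Channels behaved likewise. Scn1a, a sodium channel of inhibitory neurons, had 1.32 to 8.15 CPM in livers (median 1.74) and 226 to 243 CPM in brains (median 232), a difference of log2 -6.19 ± 0.24; -7.03 without the 2 animals. The potassium channels Kcnd2, Kcnq3 and Kcna2 differed by log2 -6.29 ± 0.34, log2 -6.28 ± 0.37 and log2 -4.48 ± 0.19, and by -7.66, -8.15 and -4.76 without them. Kcna2 kept 3.95 to 14.7 CPM in livers.

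Monoamine and striatal genes were lower in liver for 10 of 15 tested members of 18 and higher for 3 (median -4.63; -4.84 without animals 2627 and 2630). Th had 0 to 2.72 CPM in livers (median 0.567) and 28.3 to 54.6 CPM in brains (median 48.4), a difference of log2 -5.98 ± 0.31; -6.75 without them, the opioid precursor Penk differed by log2 -5.77 ± 0.25, and the cyclic nucleotide enzymes Adcy5 and Pde10a by log2 -3.71 ± 0.14 and log2 -4.94 ± 0.20. Of the higher members, Maob, which oxidises amines, had 194 to 477 CPM in livers (median 238) and 49.1 to 57.6 CPM in brains (median 53.8), a difference of log2 2.46 ± 0.16, and Ddc, which makes dopamine and serotonin, had 93.6 to 434 CPM in livers (median 192) and 37.4 to 64.2 CPM in brains (median 53.4), a difference of log2 1.81 ± 0.20.

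Of 21 neuronal cytoskeleton genes, 19 were tested, 16 were past 2-fold lower in liver and 2 higher (median -5.68; -6.43 without animals 2627 and 2630). The microtubule proteins Map1b and Map1a differed by log2 -5.801 ± 0.32 and log2 -6.26 ± 0.28, the kinesin Kif5a by log2 -5.65 ± 0.24 and Stmn3 by log2 -6.08 ± 0.37; without them these were -6.52, -6.97, -6.198 and -7.08. The epithelial keratins Krt8 and Krt18, put in the list as a contrast, had 217 to 339 CPM in livers (median 277) against 0 to 6.26 CPM in brains (median 0.853) and 225 to 497 CPM in livers (median 282) against 0.816 to 11.2 CPM in brains (median 1.89), with the brain of animal 2572 highest for both. Without that animal their differences were 8.53 and 7.59, against 7.497 and 6.81 with it.

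RNA-binding proteins of neurons were lower in liver for 11 of 15 members, and Ptbp1 and Esrp2 were higher (median -4.47; -4.798 without animals 2627 and 2630). The splicing regulator Rbfox1 had 2.84 to 37.4 CPM in livers (median 11.4) and 403 to 970.2 CPM in brains (median 685), a difference of log2 -5.55 ± 0.34; -6.37 without them, and Celf4, Elavl3 and Elavl2 differed by log2 -5.74 ± 0.24, log2 -6.22 ± 0.28 and log2 -6.03 ± 0.35 (-6.29, -7.07 and -7.53). Ptbp1, which represses neuronal exons, had 94.3 to 121 CPM in livers (median 107) and 13.8 to 25.4 CPM in brains (median 16.2), a difference of log2 2.63 ± 0.12. Esrp2, an epithelial splicing regulator, gave 780 reads over the livers and 0 over the brains, at least 446-fold higher when 3 reads are taken for the brains together.

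Glial genes were lower in liver. All 13 oligodendrocyte markers (median -5.71), all 11 astrocyte markers (median -5.63) and all 4 markers of oligodendrocyte precursors (median -4.48) were past 2-fold lower; without animals 2627 and 2630 the medians were -6.61, -6.198 and -5.196. Mbp, a main myelin protein, had 18.95 to 105 CPM in livers (median 24.97) and 1815 to 2178 CPM in brains (median 2032), a difference of log2 -5.83 ± 0.31, with livers 2627 and 2630 at 83.9 and 105 CPM and a difference of -6.47 without them. The myelin enzyme Cnp differed by log2 -3.93 ± 0.17. Slc1a2, the glutamate transporter of astrocytes, was an exception in size: 168 to 283 CPM in livers (median 234) and 1094 to 1158 CPM in brains (median 1129.9), a difference of log2 -2.299 ± 0.12, and -2.51 after subtraction. The calcium-binding protein gene S100b differed by log2 -6.54 ± 0.35 (-7.78 without the 2 animals). The long noncoding RNA Meg3, abundant in brain, had 11.05 to 102 CPM in livers (median 16.96) and 1999.6 to 2811 CPM in brains (median 2450.4), a difference of log2 -6.400 ± 0.41; -7.28, and the matrix protein Sparcl1 and prostaglandin D synthase Ptgds differed by log2 -5.19 ± 0.22 and log2 -5.45 ± 0.20.

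Macrophage genes differed in both directions. All 7 Kupffer cell markers were past 2-fold higher in liver (median 8.79; 8.02 without animal 2572): the lectin Clec4f gave 2075 reads over the livers and 2 over the brains (ratio 1778, counting interval 492 to 14689), and Cd5l 2035 and 0, at least 1162-fold higher. Marco, a scavenger receptor, ranged from 7.47 to 143 CPM among livers, highest in animal 2572. Of 9 microglia markers, 7 were called lower in liver, 5 of them past 2-fold, while Csf1r and Sall1 were called higher and Sall1 past 2-fold (median -1.62; -1.66 without animals 2627 and 2630). Their summed level overlapped, at 149 to 301 CPM in livers and 212 to 252 CPM in brains. The chemokine receptor Cx3cr1 had 3.33 to 8.98 CPM in livers (median 4.54) and 28.3 to 32.96 CPM in brains (median 30.8), a difference of log2 -2.602 ± 0.19, and Tmem119, P2ry12 and Siglech differed by log2 -2.14 ± 0.18, log2 -1.62 ± 0.18 and log2 -2.44 ± 0.34. Sall1, a transcription factor of microglia in brain, had 11.9 to 47.7 CPM in livers (median 17.6) and 6.29 to 12.6 CPM in brains (median 6.82), a difference of log2 1.63 ± 0.27.

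Vessel and stroma genes differed as well. All 8 markers of sinusoidal endothelium were past 2-fold higher in liver (median 5.94), with Dnase1l3 and the scavenger receptor Stab2 at log2 7.71 ± 0.27 and log2 6.59 ± 0.21. Of 7 stellate cell markers 6 were past 2-fold higher (median 5.21), with the proteoglycan Dcn at 360.0 to 504 CPM in livers (median 402) and 26.7 to 51.6 CPM in brains (median 44.9), a difference of log2 3.39 ± 0.14 and Colec11 at log2 6.96 ± 0.16. Of 7 brain endothelium markers 4 were past 2-fold lower (median -1.401; -1.28 without animals 2627 and 2630): the glucose transporter Slc2a1 had 11.9 to 31.6 CPM in livers (median 17.7) and 95.4 to 137 CPM in brains (median 112), a difference of log2 -2.55 ± 0.15 and the junction protein Cldn5 differed by log2 -1.401 ± 0.16. Of 6 bile duct markers 4 were tested and 3 were past 2-fold higher in liver (median 2.38; 3.402 without animal 2572). Of these, Epcam was at 108 CPM and Tff2 at 271 CPM in liver 2630, which was also highest in intestine markers, and at most 38.2 and 213 CPM in the other livers.

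Genes of neighbouring tissues marked single libraries. All 8 tested pituitary and hypothalamus genes of 10 were past 2-fold lower in liver (median -6.64; -8.47 without animals 2627 and 2630 and -7.27 without 2627 alone), and 1 brain held the highest levels. Growth hormone (Gh) had 0 to 3.400 CPM in livers (median 0) and 35.2 to 8466 CPM in brains (median 93.6), Pomc, the precursor of corticotropin, 0 to 1.496 CPM in livers (median 0.659) and 28.1 to 2208 CPM in brains (median 42.2), and prolactin (Prl) 23.6 to 6694 CPM in brains against 3 reads over the 7 livers; animal 2572 was highest for all 3. Without that animal the differences of Gh and Pomc were -7.56 and -6.40, against -10.06 and -8.52 with it; they also moved without animal 2574 (Gh, -10.66), 2627 (Gh, -11.59) and 2629 (Pomc, -9.12), and Gh was -11.68 without 2627 and 2630. Of 9 choroid plexus and ependyma genes 5 were tested, 4 were past 2-fold lower in liver and Ttr was higher (median -5.25; -4.06 without animal 2573, -5.92 without 2572 and -5.05 without 2627 and 2630).

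All 5 tested blood genes of 7 were past 2-fold higher in liver (median 1.49), with the globin Hbb-bs at 225 to 604 CPM in livers (median 308) and 97.9 to 182 CPM in brains (median 143), a difference of log2 1.27 ± 0.15 and Alas2, of haem synthesis in red cells, at 25.9 to 206 CPM in livers (median 143) and 5.27 to 7.04 CPM in brains (median 6.12), a difference of log2 3.897 ± 0.34. All 5 tested small intestine genes of 8 were past 2-fold higher (median 7.48); Fabp2, the intestinal fatty acid binding protein, had 115 to 363 CPM in livers (median 154) and 0 to 1.17 CPM in brains (median 0.315). Their summed level was 371 to 1644 CPM in livers, highest in animal 2630, and Vil1 differed by log2 3.44 ± 0.37, or 2.85 without that animal. Whether intestine RNA entered the liver libraries was not tested. Of 6 B and T cell genes 1 was tested, and it was called higher in liver but not past 2-fold (log2 0.70).

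**Figure D3:**
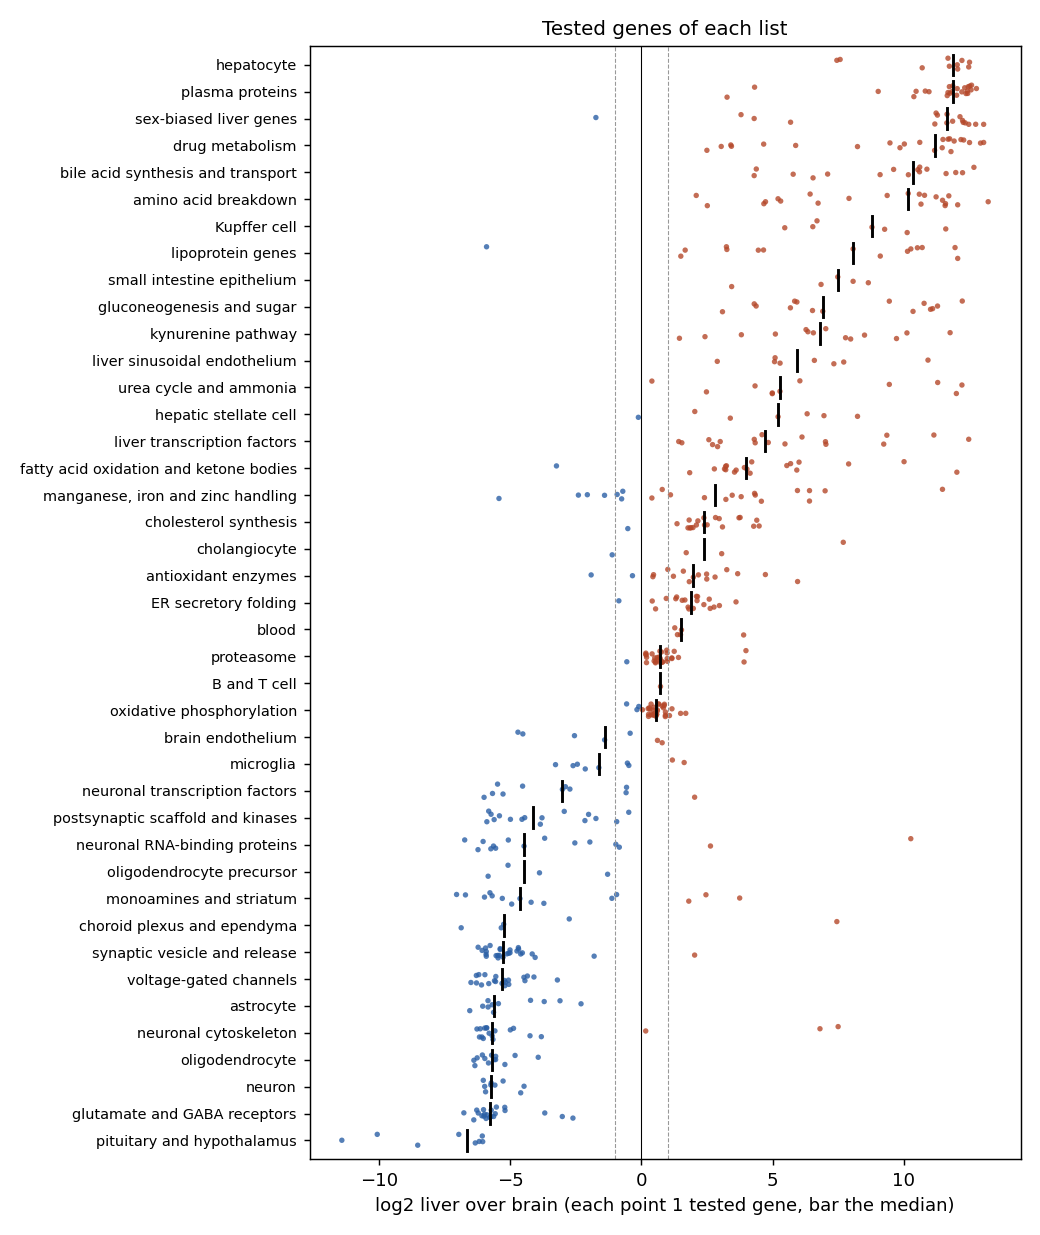
Tested genes of each list by their log2 level of liver over brain (x axis). Each point is 1 gene, the black bar is the list's median, and dashed lines mark 2-fold; lists run from the highest median at the top to the lowest at the bottom. The plasma protein and hepatocyte lists have medians of 11.87 and 11.89, while the marker lists of neurons, astrocytes and oligodendrocytes have medians of -5.72, -5.63 and -5.71.

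Core machinery differed less, and its direction moved with the scaling. Of 35 tested oxidative phosphorylation genes of 37, 31 were called higher in liver and 1 lower, but 3 were past 2-fold (Sdhd, Sdhb and Uqcrfs1 at log2 1.69, 1.49 and 1.17), and the median of 0.55 turned to -0.18 with library totals alone. Of 30 proteasome genes 24 were called higher, 1 lower and 6 past 2-fold higher (median 0.72, and -0.02 with library totals alone). Psmb8, a subunit of the immunoproteasome, stood out at 79.5 to 124 CPM in livers (median 90.2) and 3.98 to 8.57 CPM in brains (median 6.16), a difference of log2 3.99 ± 0.14, while Psmb3 differed by log2 1.41 ± 0.09. Of 20 genes of secretory protein folding 16 were past 2-fold higher (median 1.895; 1.16 with library totals alone). P4hb, a disulfide isomerase, had 1036 to 1845 CPM in livers (median 1372) and 93.6 to 165 CPM in brains (median 114), a difference of log2 3.61 ± 0.15, the chaperone Hspa5 861 to 3158 CPM in livers (median 1516) and 243 to 357 CPM in brains (median 315), a difference of log2 2.38 ± 0.20, and Hsp90b1 and Calr differed by log2 2.12 ± 0.15 and log2 2.098 ± 0.13.

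Some abundant genes stood at like levels. Gapdh, of glycolysis, had 561 to 735 CPM in livers (median 657) and 589 to 752 CPM in brains (median 663), a difference of log2 -0.05 ± 0.10, 95% interval half-width 0.22, and the chaperone Hsp90ab1 1012 to 1656 CPM in livers (median 1387) and 1093 to 1263 CPM in brains (median 1188), a difference of log2 0.18 ± 0.10, half-width 0.22. With library totals alone these were -0.78 and -0.55, so that the likeness holds on the TMM scale. Messages of the mitochondrial genome took 2.65% ± 0.234 of liver reads and 2.197% ± 0.0770 of brain reads (SD, n = 7 each), higher in 7 of 7 animals (exact sign-flip permutation test, p = 0.0156).

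Many steps are run by different members of 1 gene family in the 2 organs. For 28 pairs of a liver form and a brain form, the share of the liver form in the reads of both was taken in each library, which does not depend on the scaling between libraries; 27 pairs had reads in every library. The share was higher in liver in 7 of 7 animals for 26 pairs (exact sign-flip permutation test, p = 0.0156 and 0.0162 adjusted over the pairs, the smallest possible), 19 pairs had the liver form past 2-fold higher and the brain form past 2-fold lower, and 3 had both higher in liver. For 8 pairs the liver form was over 90% in every liver and under 10% in every brain. The forms were assigned to the organs with earlier results of these data known. These counts therefore describe the chosen pairs and do not test their direction. Of all genes tested, 22.0% were past 2-fold higher in liver and 27.9% lower.

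Some genes of glucose use showed the exchange. For entry, the share of Slc2a2 in Slc2a2 and Slc2a3 was 99.4% ± 0.409 in liver against 0.447% ± 0.775 in brain (SD, n = 7 each). Further down, the liver pyruvate kinase Pklr made up 74.8% ± 8.198 in liver against 0.0312% ± 0.0356 in brain of Pklr and Pkm. For glycogen, Gys2 made up 93.2% ± 2.47 in liver against 0% ± 0 in brain of Gys2 and Gys1, with no Gys2 read in any brain, and Pygl 98.1% ± 0.128 in liver against 6.91% ± 0.708 in brain of Pygl and Pygb. Pfkl and Eno1, listed as liver forms, were not higher in liver. Pfkl had 18.5 to 24.5 CPM in livers and 37.3 to 44.4 CPM in brains (log2 -0.89 ± 0.11). Eno1 overlapped, at 167 to 205 CPM in livers and 181 to 241 CPM in brains (log2 -0.21 ± 0.09).

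Shares of nitrogen and fat enzymes moved likewise. Mat1a made up 96.7% ± 0.405 in liver against 0.703% ± 0.732 in brain of the methionine adenosyltransferases Mat1a and Mat2a, Cpt1a 99.4% ± 0.445 in liver against 31.2% ± 3.38 in brain of Cpt1a and Cpt1c, and Fabp1 99.8% ± 0.0445 in liver against 1.78% ± 1.14 in brain of Fabp1 and Fabp7. Mat2a itself was not past 2-fold lower in liver. It had 75.4 to 111.1 CPM in livers and 110.9 to 142.9 CPM in brains (log2 -0.52 ± 0.10), ranges that overlap. The thyroid hormone deiodinase Dio1 made up 99.9% ± 0.121 in liver against 0.808% ± 1.24 in brain of Dio1 and Dio2. Cyp27a1 made up 99.3% ± 0.365 in liver against 10.8% ± 1.94 in brain of Cyp27a1 and the neuronal cholesterol hydroxylase Cyp46a1.

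Other pairs differed in how far the share moved. Ptbp1 made up 85.1% ± 2.39 in liver against 19.3% ± 4.31 in brain of Ptbp1 and its neuronal relative Ptbp2. Snap23 made up 76.6% ± 14.8 in liver against 1.31% ± 0.242 in brain of Snap23 and Snap25, with the 2 lowest livers at 52.3% and 58.3% in animals 2630 and 2627, whose brain share was highest. Both forms were higher in liver for Arg1 and Arg2 and for Gpt and Gpt2; Gpt made up 53.8% ± 4.29 in liver against 28.7% ± 6.004 in brain. Mt1 made up 94.4% ± 11.7 in liver against 62.3% ± 1.92 in brain of Mt1 and Mt3. Igf1, the growth factor that liver releases, made up 100.0% ± 0 in liver against 99.1% ± 1.596 in brain of Igf1 and Igf2. This share was higher in 2 of 7 animals, with 5 at equal shares (exact sign-flip permutation test, p = 0.5). Igf2 gave 0 reads over the livers and 4 over the brains, so that the share could hardly differ. Igf1 itself was higher in liver, at 1054 to 1364 CPM against 16.7 to 22.3 CPM in brains (log2 6.01 ± 0.13).

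**Figure D4:**
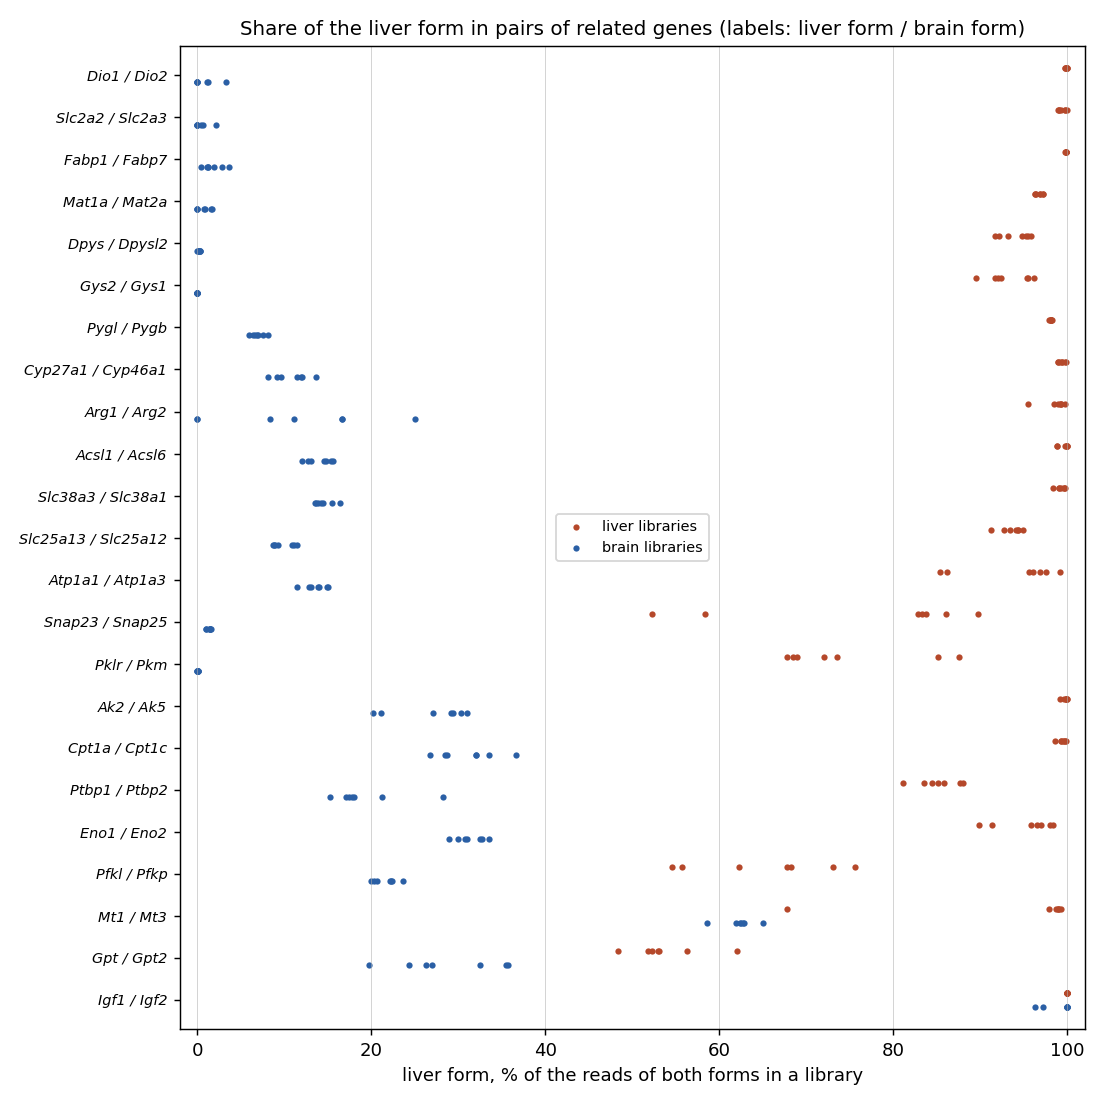
Share of the liver form in 23 of the 27 pairs of related genes. The x axis is the percentage of the reads of both forms that came from the liver form in 1 library; livers are drawn above brains in each row, and rows are ordered by the mean difference. Livers and brains are apart in each row but the lowest, Igf1 and Igf2, and the widest spreads among livers are those of Snap23, Mt1, Pklr and Pfkl.

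The organs differed in how far the sexes differed. Males and females were compared within each organ and the 2 differences were tested against each other: 42 of 12943 genes (0.324%) had a sex difference that depended on the organ, 23 more male in liver (0.178%) and 19 more female (0.147%), at an adjusted p below 0.05. Within liver, 418 of 10771 genes (3.88%) differed between the sexes, 208 (1.93%) higher in males and 210 (1.95%) higher in females. Within brain, 6 of 12748 (0.0471%) did: the Y-linked Ddx3y, Kdm5d, Eif2s3y and Uty were higher in males (0.0314%), and Xist and Ddx3x, on the X chromosome, higher in females (0.0157%). The count of organ-dependent genes was 555 without animals 2627 and 2630 and 532 with a term for the run of animal numbers (2572 to 2574 against 2627 to 2630), and without single animals it ranged from 17 (without 2629) and 18 (without 2628) to 90 (without 2627), so that it is a count for these 7 animals.

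Cyp7b1, an oxysterol and steroid hydroxylase, had 1103, 1058, 528 and 575 CPM in male livers and 62.8, 50.4 and 45.4 CPM in female livers. Brains had 17.6, 15.99, 13.2 and 15.9 CPM in males and 14.2, 14.1 and 12.9 CPM in females. Males were above females in liver without overlap, lower in animals 2627 and 2630 than in 2573 and 2574, and the sexes overlapped in brain; the male over female difference in liver minus that in brain was log2 3.72 ± 0.28 (adjusted p = 1.01e-05). Gstp1, a glutathione transferase, had 624 to 896 CPM and 65.6 to 91.3 CPM in male and female livers, and 26.7 to 52.2 CPM and 28.9 to 41.8 CPM in male and female brains (log2 3.13 ± 0.30). Ttc39c, Susd4 and Nat8, an acetyltransferase gene, were likewise more male in liver than in brain, by log2 2.16 ± 0.23, log2 3.07 ± 0.28 and log2 3.39 ± 0.40.

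Female-high in liver were Cux2, Abcd2 and Mfsd2a. Cux2, a transcription factor of female liver and of upper-layer cortical neurons, had 3.29, 2.27, 3.97 and 2.72 CPM in male livers and 43.6, 47.5 and 25.4 CPM in female livers. Brains had 63.4, 54.6, 44.6 and 62.8 CPM in males and 48.1, 49.2 and 51.6 CPM in females (log2 -3.78 ± 0.35, adjusted p = 6.86e-05). Its liver level in females came near the brain level, while males were far below it. Abcd2, a peroxisomal transporter, had 3.29 to 20.4 CPM and 96.8 to 163 CPM in male and female livers, and 31.3 to 37.9 CPM and 32.03 to 39.9 CPM in brains (log2 -3.26 ± 0.32), so that male livers were below and female livers above every brain. Mfsd2a, which carries lysophospholipids, differed by log2 -2.55 ± 0.29.

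**Figure D5:**
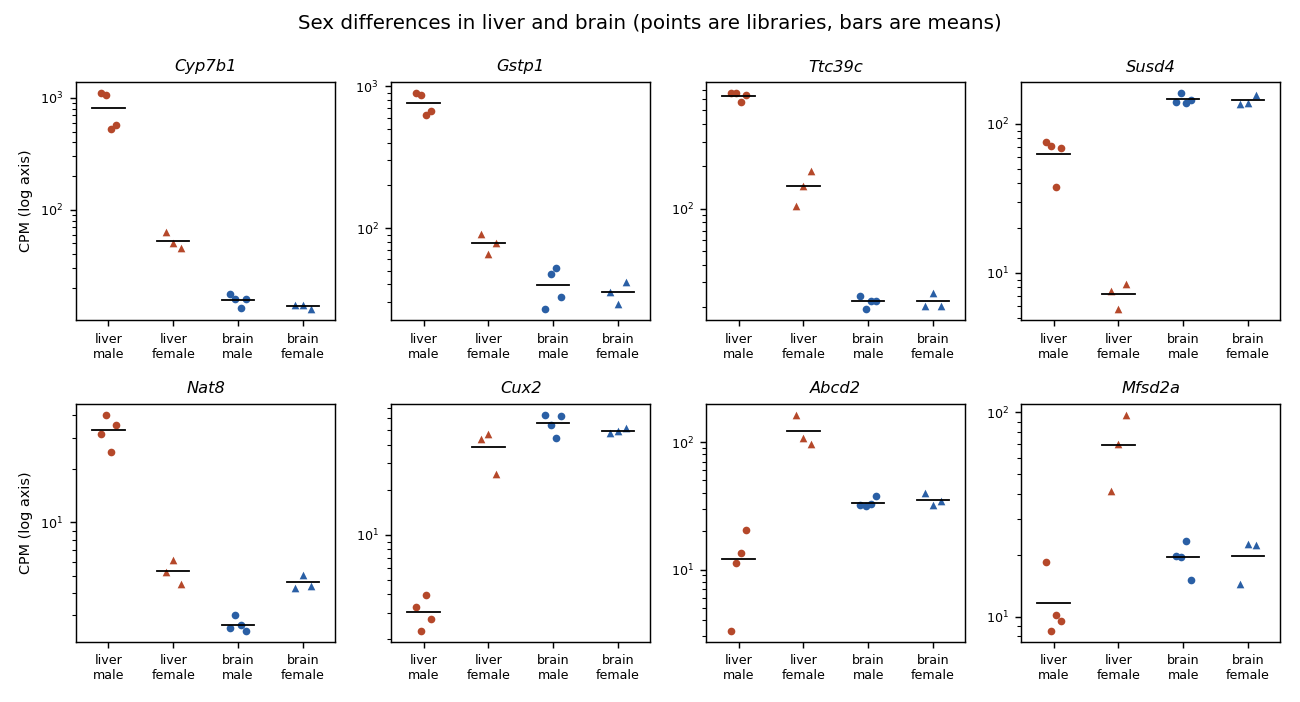
Levels of the 8 genes with the smallest p for a sex difference that depends on the organ. Each panel is 1 gene with CPM on a log axis; points are libraries (4 male and 3 female per organ, circles male and triangles female) and bars are means, livers left of brains. Male and female livers are apart in every panel, while male and female brains overlap in all panels but that of Nat8.

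The 6 genes with the smallest p for a sex difference in liver were at most at 2.33 CPM in any brain. Cyp2b9, a cytochrome P450 of female liver, had 8.15 to 13.2 CPM in males and 516 to 601 CPM in females (log2 -5.69 ± 0.16 male over female, adjusted p = 1.05e-08), and no read in any brain. Mup20, a urinary pheromone protein of males, had 3839.6 to 4771 CPM in males and 169 to 193 CPM in females (log2 4.59 ± 0.13), and Cyp2d9 1848 to 2161 CPM and 104 to 119 CPM (log2 4.19 ± 0.13). Cyp2a4, Cyp2a22 and Cyp17a1 were higher in females, by log2 -5.72 ± 0.23, log2 -5.53 ± 0.21 and log2 -4.24 ± 0.16. Of 30 sex-biased liver genes listed, 17 passed the filter of the organ comparison; 16 were past 2-fold higher in liver and Cux2 lower (median 11.65; 11.23 with 4 genes at their bound).

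In brain the smallest p was that of Xist, the RNA that silences 1 X chromosome, at 0.284 to 0.408 CPM in males and 116 to 137 CPM in females (log2 -8.46 ± 0.19). Its level in livers was 7.94 to 10.2 CPM in males and 286 to 612 CPM in females. Ddx3x, which escapes that silencing, differed by log2 -0.48 ± 0.08 (adjusted p = 0.0343) and was not called in any of the 7 fits that left out 1 animal.

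Animals varied more in liver than in brain. The biological coefficient of variation, the spread between animals beyond counting error, was 0.167 in liver and 0.0987 in brain with sex in the model, and 0.219 and 0.102 without it. Among genes of at least 50 CPM on average, the most variable in liver were Saa2, an acute-phase protein, the sulfotransferase Sult2a1, Xist, Cyp2c69 and Lcn2, a lipocalin of innate defence; in brain they were Prl, Gh, Pomc, Ttr and Xist. Saa2 ranged from 42.1 to 2238 CPM among livers, with a median of 142.

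The 8 manganese-treated animals of the study, given manganese chloride daily at a labelled dose of 50 mg per kg, are other mice and repeat the organ comparison. Of the 6463 genes past 2-fold here, 6249 were tested there, 6248 had the same sign and 6211 were called in the same direction. Sizes often differed there: of 163 named genes 87 moved by over 1.5 times, 62 nearer to 0 and 25 away from it. Alb differed by log2 6.69 in those animals and by 11.68 here, and Fgb by 7.28 and 12.45; the part of treatment in this was not tested.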

How the data were processed

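The deposited values are counts of reads per Ensembl gene, in a file for each library. According to the submitters' processing notes, reads were aligned with STAR (2.7.10b) to GRCm39 and counted with HTSeq (0.2.0), with FastQC (0.12.0), DESeq2 (1.12.3) and R (4.2.2) also named. Per the labels, libraries were 3′ TagSeq sequenced as single-end reads. The use of molecular identifiers to remove duplicates is not stated in the labels. Entries that name no gene and 92 spike-in entries (3 counts in these 14 libraries) were left out. Of 55416 gene IDs, 52083 were matched to a symbol. Reads that hit several places, which families of near-identical genes gather, were not counted.

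From these counts, genes were filtered (filterByExpr, minimum count 10, minimum total 15), scaled by TMM and tested with edgeR's quasi-likelihood test (4.0.16, in R 4.3.3) with animal as a block and Benjamini-Hochberg adjusted p below 0.05. "Past 2-fold" means an adjusted p below 0.05 from edgeR's test against a log2 threshold of 1. Standard errors and intervals come from the same fit. The block rests on the labels, since both organs came from the same animals. Deviations of the 2 organs of an animal from their group means correlated by -0.119 to 0.256 over 7257 genes. No 2 libraries of a group agreed within sampling noise (lowest chi-square per gene 2.95 in liver and 1.47 in brain). The sex tests used the same tool. The fits were tested on simulated data. Limma-voom (3.58.1) and DESeq2 (1.42.0) served as alternatives, with other scalings, filters, no block, subsets of animals and each animal left out. Genes with 0 reads in an organ have a fold computed against 3 reads over the group, and genes with 1 to 3 reads a ratio with an exact 95% counting interval.

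Named genes are up to 4 members per list with the highest level that passed 2-fold in the list's main direction and up to 3 in the other, the 10 highest per direction with a log2 difference over 5, the kynurenine pathway, 3 manganese transporters, the pairs, genes near 0, those with the smallest p for sex, and the most variable. The members and lists were chosen with earlier results of these data known. Some genes of the lists are counted but not reported by name here. Libraries of small intestine were not used here.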

Additional observations from a re-analysis of the deposited data

Results flagged for a closer look

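For 258 sets of 7 libraries (each named gene in 1 organ, with at least 10 CPM in the highest library), the gap between the most extreme library and its nearest neighbour was set against the range, with 0.568 as the critical value for 7. It was passed in 24 sets. Some of these genes were named because they varied most over animals, and the same libraries recur among the sets. The count can therefore not be set against chance.

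Among livers, 2630 was highest for Fabp2 (363 CPM), Vil1 (115 CPM) and Arg2 (57.7 CPM), genes that intestinal epithelium also expresses, and 2627 for Mt1 (2026 CPM). Liver 2572 was highest for Glul (1402 CPM) and Marco (143 CPM), and liver 2573 for Acmsd (77.8 CPM).

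Brain 2572 was highest for Gh (8466 CPM), Prl (6694 CPM) and Pomc (2208 CPM), pituitary hormone genes, and also for Gpx3 (102 CPM), Cebpb (27.4 CPM), Ptbp1 (25.4 CPM) and Krt18 (11.2 CPM). Brain 2628 was highest for the liver genes Alb (54.3 CPM) and Apoa2 (14.8 CPM) and for Rest (16.4 CPM). Brain 2629 was highest for Ttr (428 CPM) and lowest for Slc39a14 (24.5 CPM). Brain 2573 was highest for Syt1 (1172 CPM) and Grin2b (419 CPM) and lowest for Acaa2 (21.9 CPM). Brain 2630 was highest for Sall1 (12.6 CPM) and lowest for Hsp90b1 (334 CPM).

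The 8 genes with the smallest p for a sex difference that depends on the organ were singled out by that test (edgeR, male over female in liver minus the same in brain, log2). The values were 3.72 for Cyp7b1, -3.78 for Cux2, 3.07 for Susd4, 3.13 for Gstp1, -3.26 for Abcd2, 2.16 for Ttc39c, -2.55 for Mfsd2a and 3.39 for Nat8.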

How the results depend on the processing

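Without the replicate block, 5271 genes were called higher in liver and 5644 lower and 6461 of the 6463 genes past 2-fold were called in the same direction, so that the block changed no call of a named gene. All 6463 kept their sign, where tested, in each fit of the vehicle animals. Leaving out 1 animal gave 10563 to 10671 calls, 6394 to 6481 of them past 2-fold, and calls numbered 4913 higher and 5641 lower with DESeq2, and 5196 higher and 5564 lower with limma-voom. The split moved with library totals alone (3179 higher, 8041 lower), and with them the medians of oxidative phosphorylation (-0.18), proteasome (-0.016) and B and T cell genes (-0.025) and the values of Glul (-0.33) and Hsp90ab1 (-0.55) turned sign. Hsp90ab1 was also -0.0010 in the manganese animals. Gapdh, near 0, was 0.17 in animals 2572 to 2574, 0.065 in males, 0.29 in the manganese animals and 0.028 without animals 2627 and 2630. Genes with a sex difference that depends on the organ (42) numbered 98 without the replicate block, 412 with no filter, 532 with the cohort by organ term, 555 without animals 2627 and 2630, and 17 to 90 without single animals (DESeq2, 57). Sex differences in liver (418) numbered 754 with cohort added, 807 without animals 2627 and 2630 and 183 to 458 without single animals, and in brain (6) 5 to 7. The cause of these moves was not tested. Without animals 2627 and 2630 the share of the 100 most abundant genes differed by 15.7 percentage points and the genes at equal depth by -2296; 5 pairs cannot give a p below 0.0625. Leaving out 1 animal gave 15.9 to 16.5 points and -2187 to -2000.0 genes. The pair shares were higher in 7 of 7 animals for 26 pairs, and in all 6 for 26 in each fit without 1 animal. Single genes moved over 1.5-fold without 1 animal: Serpina1e (13.08, without 2574), Slc2a2 (11.25, without 2629), Mup3 (13.12), Fgb (13.09), Fbp1 (11.64) and Cyp3a11 (12.36, these 4 without 2628), Elavl2 (-6.70, without 2627), and Kcnq3 (-6.93) and Th (-6.68, both without 2630). Srebf2 lost its call in animals 2572 to 2574 alone (adjusted p = 0.091), and Glul, Vil1 and Arg2 lost theirs in the manganese animals. Depth limits low genes: with no read in the brains a fold was set against 3 reads over the 7, and ratios against 1 to 3 reads have counting intervals.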

Other observations

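A few genes of inflammation and metal response were far higher in 1 liver than in the others. In animal 2627 Saa1 stood at 2979 CPM (median of the 7 livers 235), Saa2 at 2238 CPM (median 142), Lcn2 at 262 CPM (median 43.1) and Mt1 at 2026 CPM (median 519.7). Saa1 and Saa2 code for serum amyloid A, which hepatocytes release in inflammation. Other genes of the acute phase were mixed. Hamp was at 737 CPM in that liver and up to 1739 CPM in the others, and C3 at 6425 CPM and up to 7417 CPM. Fgb and Cp were highest in that liver by a small margin, at 9451 CPM against at most 8202 CPM and 2644 CPM against at most 2291 CPM. These genes were chosen after their values were seen, and nothing in the labels sets that animal apart.

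Beside the intestinal epithelium genes named above, liver 2630 was highest for Igha, the constant region of the IgA heavy chain (930.0 CPM, median 162), and for the intestinal alkaline phosphatase gene Alpi (228 CPM, median 45.9). Brain 2572, with the highest pituitary hormone levels, was also highest for the secretory granule gene Chgb (593 CPM, median 265), the cyclin Ccnd2 (144 CPM, median 46.0) and the collagen Col1a2 (117 CPM, median 54.6).

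Reads of sex-linked genes were found in the other sex at low levels: the Y-linked Ddx3y averaged 114 CPM in male livers and 2.45 CPM in female livers, and 78.1 CPM in male brains and 1.40 CPM in female brains. Serpina3k, Hsd3b7, Ugt1a1, Neurod1, Pou3f3, Vamp3, Tubb3, Tuba1a, Cox4i1 and Igkc are listed at 0 in every library, although some are abundant in these organs elsewhere, so that nothing is said of their level here.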
